A study of Mus musculus with 27 samples.

Results

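Hepatocytes of the inbred mouse strain A/J were compared with hepatocytes of 8 other inbred strains by their DNA methylation. The A/J samples were those labelled with that strain, 3 of 27 samples in all, and the other 24 samples were 3 each of the laboratory strains C57BL/6J, DBA/2J, 129S1/SvImJ, NZO/HlLtJ and NOD/ShiLtJ and of the strains WSB/EiJ, PWK/PhJ and CAST/EiJ. All 27 samples were labelled as hepatocytes from liver of female mice aged 12 weeks, and the labels name no treatment and no engineered allele. Each sample is called a biological replicate in its title, but how the hepatocytes were isolated is not given in the labels, and nothing says that replicates came from separate litters or days. The comparison asks where in the genome the strain A/J carries more or less methylation than the other strains, in a study that set genetic variation beside epigenetic variation.

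Methylation of cytosine in the dinucleotide CpG is copied to the daughter strand at cell division and is laid down and kept by DNA methyltransferases. Most CpGs of a mammalian genome are methylated, whereas CpG-rich stretches at gene starts, called CpG islands, are mostly free of it, and methylation of a CpG-rich gene start usually goes with a silent gene. A/J is an albino laboratory strain, known for its susceptibility to lung tumours, and hepatocytes are the main cell of the liver, which make bile acids, plasma proteins and urea. WSB/EiJ, PWK/PhJ and CAST/EiJ descend from mice caught in the wild, whereas NZO/HlLtJ and NOD/ShiLtJ are laboratory models of diabetes.

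Reduced representation bisulfite sequencing reads the fragments that the enzyme MspI, which cuts at CCGG, releases from DNA, and so covers mostly CpG-rich DNA. Bisulfite leaves methylated cytosine unchanged, and the deposited value of a position is the percent of reads taken as methylated there. Sequence variants of the strains at listed positions were not examined, so a variant and a difference in methylation cannot be told apart there. The A/J lists held 2958685, 2965154 and 3009290 positions, and the lists of the other strains held 2904787 to 3156965, a difference that did not pass an exact permutation test (two-sided, p = 0.190). The lists give no read numbers, so the depth behind a value is unknown. In the C57BL/6J lists the mitochondrial chromosome has another name than in all other lists, so a difference in processing and the strain C57BL/6J cannot be told apart. RRBS gave little with which to check the label hepatocyte: 7 of 25 hepatocyte genes had 5 or more read positions in the window around their start, with a median A/J level of 0.667%, and 0 of 14 Kupffer cell and leukocyte genes had that many. Over such windows the median A/J level was 0.382% in 5 stellate cell genes, 2.64% in 2 endothelial genes and 31.2% in 2 cholangiocyte genes. A low level was thus not particular to hepatocyte genes.

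Positions listed in all 27 samples numbered 1691758 after a stretch of 695 on chromosome 17 was left out, and 703638 of them, with a mean at least 2.5 points away from 0 and from 100%, were tested. A position or tile was called when the moderated test of limma gave a Benjamini-Hochberg adjusted p under 0.05 for A/J against the mean of the other 8 strains and the difference of the means was at least 25 percentage points. In A/J 2307 positions were called higher, which is 0.328% of those tested, and 652 were called lower, which is 0.0927%. Thus 78.0% of the 2959 called positions were higher in A/J. The higher positions were a median 38.2 points above the other strains, and the lower ones had a median difference of -39.8 points. The median difference over all tested positions was 0.954 points. These p-values measure the spread between the samples within strains only. With the 24 other samples as one group, whose spread then includes that between strains, 531 positions were called higher and 154 lower. With an offset of 1 point in place of 5 on the log scale 1064 were called higher and 293 lower. Without A/J replicate 1 the called positions numbered 1383 higher and 517 lower, and without replicate 3 they numbered 1357 and 488.

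The same direction was seen in tiles of 1 kb with at least 5 shared positions, of which 45598 were tested. Of these 156, or 0.342%, were called higher in A/J and 31, or 0.068%, lower, so that 83.4% of the 187 called tiles were higher. A tile is called set apart below when it was called and all 3 A/J samples lay on one side of all 24 other samples. In the higher direction 56 tiles were set apart, 0.123% of those tested, and in the lower direction 7 were, 0.0154% of those tested. Without the limit on the size of the difference, 2196 tiles passed the adjusted p of limma in the higher direction and 572 in the lower. With the 24 other samples as one group 49 tiles were called higher and 9 lower.

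Against single strains the share of higher positions was not the same. Against NOD/ShiLtJ 1482 positions (0.211%) were higher in A/J and 767 (0.109%) lower, the fewest called of any pair in the main fit. With an offset of 1 point in place of 5, NOD/ShiLtJ and NZO/HlLtJ had equal counts, 1159 each. Against NZO/HlLtJ 1723 positions (0.245%) were higher and 830 (0.118%) lower, and against DBA/2J 1771 (0.252%) were higher and 748 (0.106%) lower. These 3 laboratory strains thus differed from A/J at the fewest positions, with about the same lean toward higher levels in A/J. Against 129S1/SvImJ 2153 positions (0.306%) were higher and 987 (0.14%) lower. Against C57BL/6J 3252 positions (0.462%) were higher and 934 (0.133%) lower, and against WSB/EiJ 4139 (0.588%) were higher and 1244 (0.177%) lower. C57BL/6J and WSB/EiJ were the strains with the largest shares of higher positions, 77.7% and 76.9%. Against CAST/EiJ 6249 positions (0.888%) were higher and 5010 (0.712%) lower. PWK/PhJ was the exception: 4779 positions (0.679%) were higher in A/J and 5384 (0.765%) lower, so that 47.0% of the called positions were higher. Without A/J replicate 3 the count against C57BL/6J was 2013 higher and 720 lower. With an offset of 1 point in place of 5 on the log scale the counts against single strains were lower by over 1.5 times, 3449 higher and 2806 lower against CAST/EiJ and 766 and 393 against NOD/ShiLtJ. The 8 pairs share the A/J samples and are not independent of each other.

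**Figure D1:**
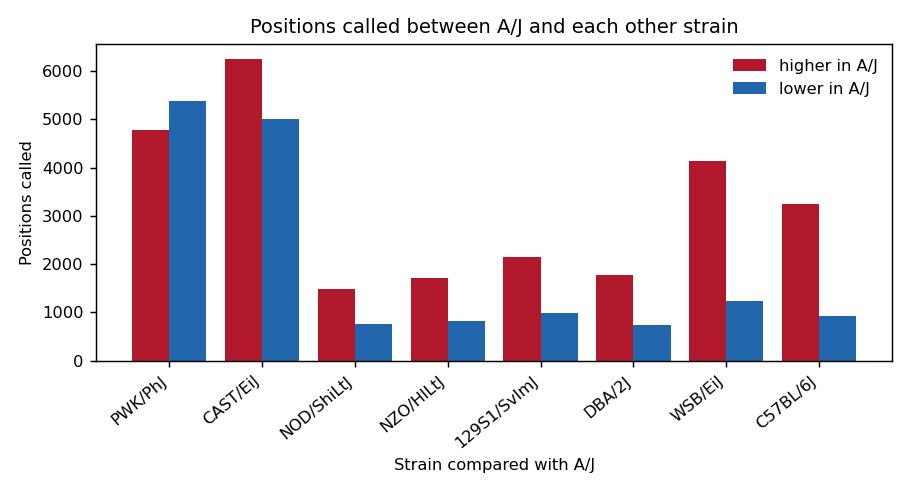
Number of positions called between A/J and each of the 8 other strains, with positions higher in A/J in red and lower in A/J in blue, ordered by the share that was higher. Higher positions outnumbered lower ones against 7 of the strains, and against PWK/PhJ 4779 were higher and 5384 lower.

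When each strain in turn was set against the mean of the other 8, A/J had the highest share of called positions in the higher direction, 78.0%. PWK/PhJ followed with 68.7% of its called positions, CAST/EiJ with 59.8% and NOD/ShiLtJ with 53.8%. The lowest shares were 33.8% in WSB/EiJ and 33.1% in C57BL/6J. The share of tested positions called in either direction was 1.95% in PWK/PhJ, 1.83% in CAST/EiJ, 0.59% in WSB/EiJ, 0.552% in C57BL/6J, 0.292% in NOD/ShiLtJ, 0.275% in 129S1/SvImJ, 0.263% in DBA/2J and 0.242% in NZO/HlLtJ. A/J thus ranked 1 among the 9 strains by the share of its calls that were higher, and 5 by their number. These comparisons share samples, and the difference between strains in this share was not tested. With 9 strains, a test over strains cannot give a p below 0.111.

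The lean toward higher levels was spread over the genome. More positions were called higher than lower on 18 of 19 autosomes. The exception was chromosome 13, with 29 higher and 36 lower. The mean difference over tested positions was above 0 on 19 of 19 autosomes, from 0.643 points on chromosome 3 to 1.54 points on chromosome 7. Chromosome 19 had 39 higher positions and 1 lower, and chromosome 4 had the largest number of higher positions, 279, against 49 lower. Although all animals were labelled female, 65 tested positions were listed on the Y chromosome, and 1 position and 1 tile among them were called higher.

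The mean level over all shared positions was 28.3, 28.4 and 28.4% in the A/J samples, with a mean of 28.3% ± 0.0403 (SD, n = 3). The other 24 samples ranged from 27.2 to 28.6%, with a median of 27.7%. The difference of 0.568 points passed an exact permutation test over samples (two-sided, p = 0.0178; adjusted over 2 sets of positions, 0.0178), in which the 3 samples of a strain count as separate. A/J was second among the 9 strains, after PWK/PhJ at 28.5%. Without A/J replicate 1 this difference was 0.551 points and missed the threshold (exact permutation test, p = 0.0646). At the 154991 positions that averaged between 20 and 80% over the 27 samples, the A/J samples were at 56.1, 56.6 and 56.96%, a mean of 56.5% ± 0.444 (SD, n = 3). The other samples there ranged from 50.6 to 57.8% with a median of 52.6%, and the difference was 3.30 points (exact permutation test, two-sided, p = 0.0113). Here too A/J was second after PWK/PhJ, and 21 of the 24 other samples lay below all 3 A/J samples.

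**Figure D2:**
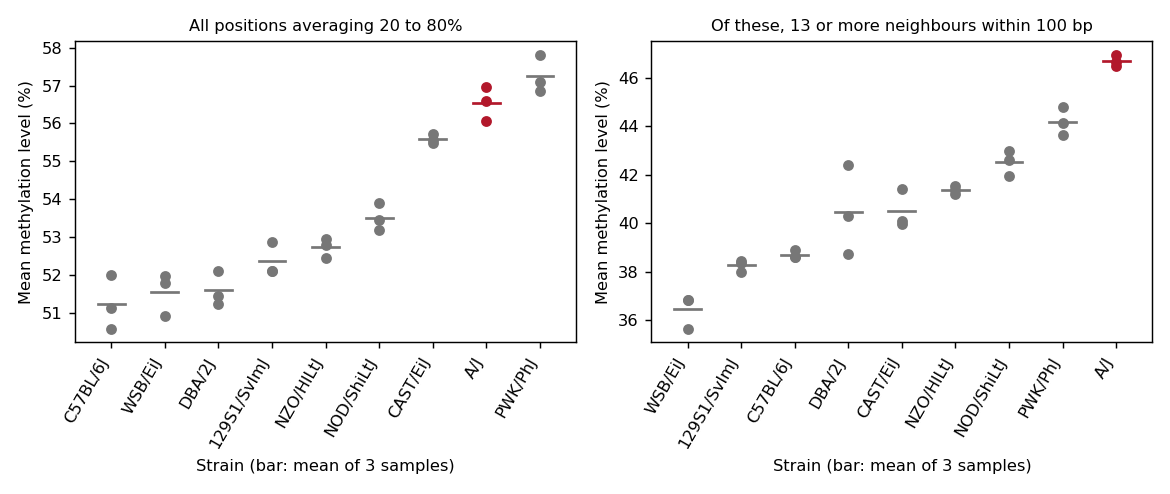
Mean methylation level (%) of each sample (points) and of each strain (bars) over positions averaging 20 to 80%, on the left, and over those of them with 13 or more other read positions within 100 bp, on the right; the vertical axes do not start at 0. A/J, in red, was second after PWK/PhJ on the left and above all 24 other samples on the right.

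The difference was widest at positions of intermediate level. At positions averaging 10 to 20% it was 2.92 points, at 20 to 40% 4.39 points and at 40 to 60% 4.38 points (exact permutation tests, each with an adjusted p of 0.0390 over 9 level classes). At 2.5 to 10% it was 0.938 points, with an adjusted p of 0.102 from an exact permutation test. At 60 to 80% it was 2.00 points with an adjusted p of 0.0754, from an exact permutation test. Classes at the ends of the scale bound the difference by their own limits, and their values, 0.0525 points below 2.5% and 0.0507 points within 2.5 points of 100%, are not read as a result.

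Among positions of 20 to 80%, the A/J excess was larger where more neighbouring positions were read. Positions were classed by how many other shared positions lay within 100 bp, where the 2 strands of a CpG count separately. This counts read positions and not all CpGs of the sequence. With 13 or more neighbours the A/J samples were at 46.5, 46.7 and 46.9%, and the others ranged from 35.7 to 44.8% with a median of 40.2%. All 3 A/J samples were thus above all 24 others, by a mean of 6.38 points (exact permutation test, two-sided, p = 0.000342, the smallest this design can give; adjusted over 3 classes, 0.00103). Like the other exact permutation tests here, this one counts the 3 samples of a strain as separate. A test over the 9 strains could not give a p below 0.111. With 6 to 12 neighbours the difference was 4.23 points (exact permutation test, adjusted p = 0.00821). PWK/PhJ, at 55.9%, was above A/J, at 55.6%, in that class. With 0 to 5 neighbours the difference was 2.03 points, did not pass the exact permutation test (p = 0.117), and A/J ranked 3 among the 9 strains. PWK/PhJ, the strain with the highest mean level, was at 44.2% in the densest class, below A/J at 46.7%, and at 61.7% in the sparsest class, above A/J at 59.9%. The 24 other samples averaged 40.3% in the densest class and 57.8% in the sparsest, so density and level were not set apart. The difference between the classes was not tested.

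Positions of 20 to 80% were also classed by their distance to gene starts. Within 250 bp of a start site of RefSeq genes (10374 positions of 20 to 80%) the A/J samples were at 43.9, 44.4 and 44.8%, and the others ranged from 37.7 to 42.8% with a median of 39.2%. The difference was 4.64 points, again with no overlap (exact permutation test, two-sided, p = 0.000342; adjusted over 5 classes, 0.000855). From there to 1 kb it was 4.27 points, from 1 to 5 kb 4.26 points, from 5 to 50 kb 3.20 points, and beyond that 1.62 points. The first 4 classes passed the exact permutation test after adjustment, and the class farthest from gene starts did not (p = 0.124). PWK/PhJ was above A/J from 1 to 5 kb, at 56.8 against 56.5%, and from 5 to 50 kb, at 60.8 against 59.4%. Over positions of any level the order was another: the difference was 0.257 points within 250 bp, where A/J overlapped the others, 0.448 points from there to 1 kb, 1.14 points from 1 to 5 kb, 0.856 points from 5 to 50 kb and 0.349 points beyond. Start-site distances were not used on chromosome 18.

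Density and distance could be set apart in part. Dense positions, those with 13 or more neighbours, differed by 4.90 points within 1 kb of a start and by 7.23 points beyond 5 kb. Both had all 3 A/J samples above the 24 others (exact permutation test, adjusted p = 0.000684 in each). Sparse positions, those with 0 to 5 neighbours, differed by 3.32 points within 1 kb (exact permutation test, adjusted p = 0.0114) and by 1.67 points beyond 5 kb (exact permutation test, p = 0.216). Among these 4 classes of positions of 20 to 80% the A/J excess was thus widest at positions with 13 or more neighbours, more than 5 kb from gene starts. The 24 other samples averaged 44.3% there and 34.5% in the dense class within 1 kb, and the difference between the classes was not tested. In both sparse classes PWK/PhJ was above A/J, at 52.0 against 51.8% within 1 kb and 63.3 against 61.2% beyond 5 kb. The order by density was not kept without limits on the level. Over positions of any level the difference was 0.431 points with 13 or more neighbours, 0.941 points with 6 to 12 and 0.638 points with 0 to 5, and in the densest class PWK/PhJ at 5.17% was above A/J at 5.15%.

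**Figure D3:**
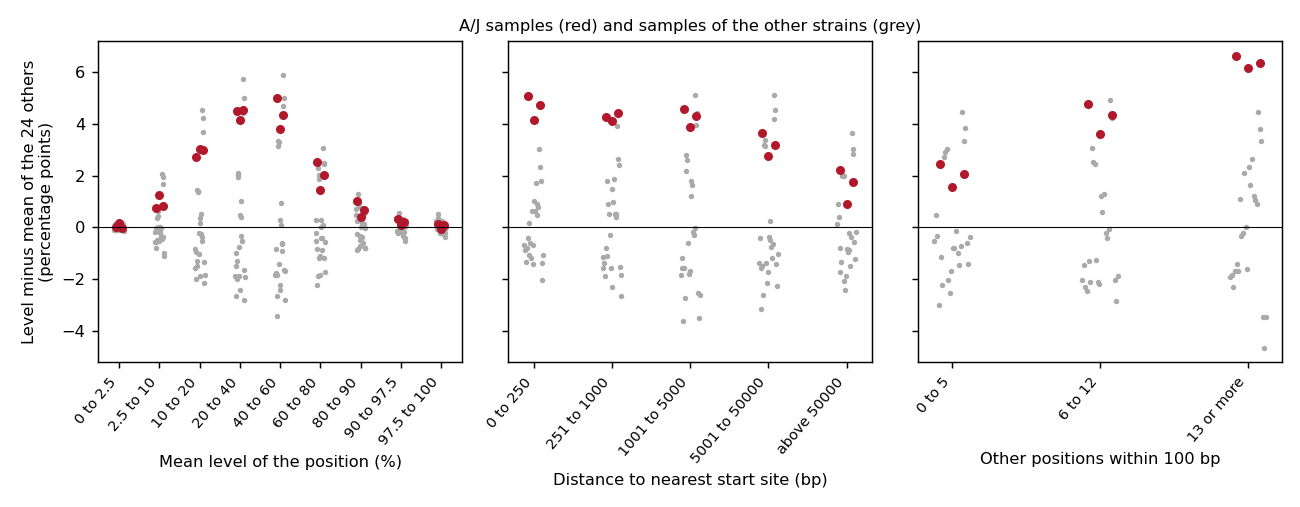
Level of each sample minus the mean of the 24 other-strain samples (percentage points) by mean level of the position, by distance to the nearest gene start and by the number of other read positions within 100 bp, the latter 2 for positions averaging 20 to 80%. A/J samples (red) lie above all other samples (grey) within 250 bp, from there to 1 kb, and with 13 or more neighbours.

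By gene annotation, positions of 20 to 80% inside protein-coding genes differed by 4.27 points (exact permutation test, adjusted p = 0.0123). Those inside other genes differed by 1.95 points and those in no gene by 1.64 points, and neither passed the exact permutation test (adjusted p = 0.175 for both). Inside protein-coding genes PWK/PhJ, at 55.84%, was above A/J, at 55.76%. On the X chromosome the A/J samples were at 40.5, 40.8 and 41.1% and the others ranged from 33.5 to 39.4% (exact permutation test, adjusted p = 0.00615). All 3 A/J samples were above the others there, by a mean of 3.18 points. The autosomal difference was of like size, 3.31 points (exact permutation test, adjusted p = 0.0219). On the autosomes PWK/PhJ, at 59.4%, was above A/J, at 58.3%.

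The surroundings of the called positions are given as a description, since their calls rest on the same values. Higher positions had a median of 9 neighbours within 100 bp and lower positions a median of 3, against 5 for all tested positions. Within 250 bp of a start site lay 10.4% of the higher positions, 3.50% of the lower and 7.59% of all tested. Beyond 5 kb lay 65.2% of the higher positions, near the 66.1% of all tested, and 79.5% of the lower. Of the higher tiles on chromosomes with start sites, 17 of 153 overlapped a promoter window, 11.1%, against 8.65% of all tested tiles, and 0 of 30 lower tiles did. A gene that codes for protein overlapped 76.9% of the higher tiles, 61.3% of the lower and 67.3% of all. The other strains were at intermediate levels in 124 of the 156 higher tiles and below 20% in the remaining 32. Over all 45598 tested tiles they were below 20% in 8794, at 20 to 80% in 10547 and above 80% in 26257. A higher call needs a difference of at least 25 points and so was not possible where they were above 80%.

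Strains also differed in which positions were listed. A position listed in all 3 A/J samples but at most 12 of the others, or in no A/J sample but at least 12 of the others, lay within 1 kb of 54.5% of the higher tiles and 64.5% of the lower, against 33.3% of all tested tiles. Its part in the calls was not tested. Of the 82 called tiles with no such position within 1 kb, 71 were higher in A/J, 86.6%, near the 83.4% of all 187 called tiles. A/J had 3204 positions listed in its 3 samples only and 2523 listed in the 24 others only, the fewest of any of the 9 strains on both counts. The positions listed only in A/J had a mean level of 72.8%.

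Most called tiles had the mean of at least 1 other strain on the A/J side. In 39 of the 156 higher tiles and 7 of the 31 lower tiles no other strain had its mean beyond the midpoint toward A/J, taken between the mean of A/J and that of the other strains. The median higher tile had 1 other strain on the A/J side. NOD/ShiLtJ was on the A/J side of the most higher tiles, 37 of 156, followed by PWK/PhJ with 34, and WSB/EiJ of the fewest, 12. Over the tested tiles the A/J samples' deviations correlated with each other with r of 0.401 to 0.417, a description across tiles, and with samples of other strains with r of at most 0.0696.

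A pair of promoters stood among the tiles that set A/J apart and are named by rule, and their sequences are given because the called tile runs over the gene start. Both lie on chromosome 7 and are shown 5′ to 3′ on the strand of the gene for the 250 bases before the RefSeq start (GRCm38.p6), with CpGs read in all 27 samples in capitals. The window of Osbpl5, which encodes an oxysterol-binding protein-like lipid carrier in a well-known imprinted region, is chr7:143740361-143740610 on the minus strand and holds 18 CpGs, of which 9 were read. The window of Isoc2b, an isochorismatase-domain gene, is chr7:4866180-4866429 on the minus strand and holds 14 CpGs, of which 2 were read.
Osbpl5: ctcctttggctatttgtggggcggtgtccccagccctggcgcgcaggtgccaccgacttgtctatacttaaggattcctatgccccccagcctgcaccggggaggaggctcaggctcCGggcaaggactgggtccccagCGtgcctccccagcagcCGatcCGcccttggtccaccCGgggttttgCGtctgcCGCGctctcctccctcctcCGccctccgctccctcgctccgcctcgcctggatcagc
Isoc2b: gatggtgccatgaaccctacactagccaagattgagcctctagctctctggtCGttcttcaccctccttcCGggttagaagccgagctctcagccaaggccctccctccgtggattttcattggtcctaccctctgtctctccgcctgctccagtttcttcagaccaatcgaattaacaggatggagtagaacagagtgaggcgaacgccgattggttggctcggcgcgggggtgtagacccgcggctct

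Across the 12 read positions of the Osbpl5 stretch the A/J samples were at 50.8, 47.1 and 53.0%, a mean of 50.3% ± 2.98 (SD, n = 3). The 24 others ranged from 4.65 to 27.5% with a median of 11.6%. A/J was about midway on the scale, the others low, and the groups did not overlap. At 9 of the 12 positions each A/J sample was above every other sample, and the position means of A/J ran from 12.2 to 77.9%. The whole tile, on chromosome 7 from 143740001 to 143741000, was at 46.2, 40.8 and 45.3% in A/J and at 4.54 to 22.1% in the others, a difference of 31.8 points (limma, adjusted p = 3.40e-09).

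The Isoc2b promoter was uneven among the A/J samples. Over its 4 read positions replicate 1 was at 25.6% and replicates 2 and 3 at 59.8 and 60.1%, and the others ranged from 0 to 10.7%. Replicate 1 was thus between the other A/J samples and the other strains, and above all 24. The tile, chromosome 7 from 4866001 to 4867000, was at 30.2, 63.8 and 77.0% in A/J, with a median of 2.40% and a highest value of 19% in the others (difference 52.4 points, limma, adjusted p = 4.62e-09). At the 2 positions farthest from the start replicate 1 was at 7.14 and 13.6% and did not stand above all others.

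**Figure D4:**
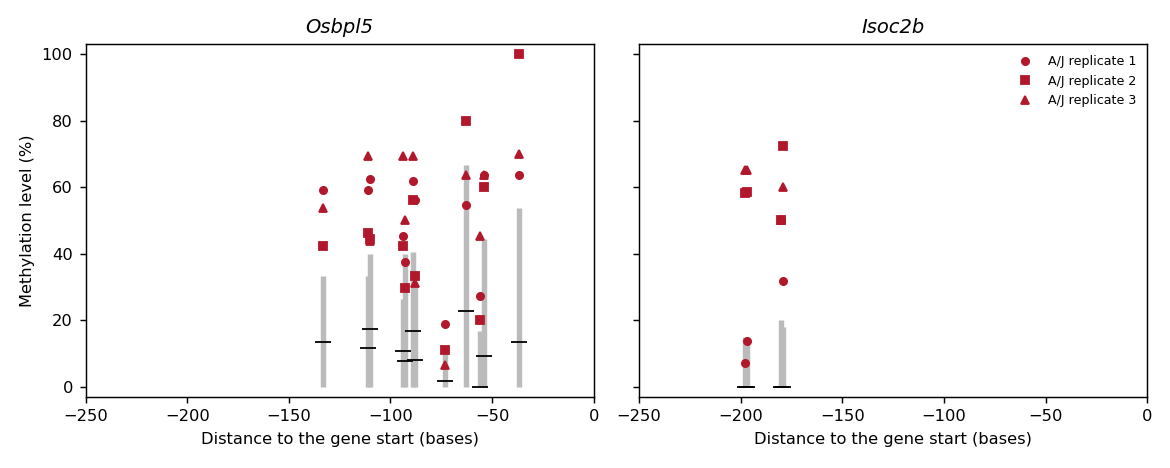
Methylation level (%) of each position read in all samples against its distance from the start of Osbpl5 (left) and Isoc2b (right), with the 3 A/J samples in red, the range of the 24 others in grey and their median as a black dash. At 9 of 12 Osbpl5 positions and 2 of 4 Isoc2b positions every A/J sample lay above every other sample.

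Other promoters in called higher tiles were chosen for mention with their values in view. The window around the start of Lxn, a carboxypeptidase inhibitor, had 10 read positions at 78.4, 73.8 and 84.5% in A/J, and the others ranged from 6.13 to 68.0%. That of B3galt4, a galactosyltransferase, had 24 positions at 48.0, 54.0 and 51.7% in A/J, within the range of the others of 1.04 to 62.2%. The window of Nr5a2, a nuclear receptor that acts on bile acid synthesis, had 3 positions at 60, 60 and 59.7% in A/J and 17.1 to 60% in the others. Its called tile, with 33 positions, was lower, at 31.6, 41.8 and 39.2% in A/J, with a median of 8.54% in the others. NOD/ShiLtJ, at 30.5% ± 1.39 (SD, n = 3), was on the A/J side of that tile. Of these windows, that of Lxn separated A/J from all other samples, and in the rest the ranges met or overlapped. The whole Lxn tile was not set apart, with the lowest A/J sample at 72.5% and the highest other sample at 73.1%. The window of D7Ertd143e, with 6 positions, also separated A/J, at 84.6, 81.5 and 84.5% against 38.1 to 79.7% in the others.

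The tile with the widest gap in the higher direction lay in the noncoding gene Gm36405, on chromosome 5 from 148794001 to 148795000. Its 13 positions averaged 74.5, 80.9 and 80.2% in the A/J samples and 10.7 to 34.3% in the 24 others, with a median of 20.2%. The lowest A/J sample was thus 40.3 points above the highest other sample. NOD/ShiLtJ, the strain nearest to A/J, was at 32.9% ± 1.32 (SD, n = 3). The difference was 57.4 points (log2 ratio scale 3.37, SE 0.135, limma, adjusted p = 3.98e-13).

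The other tiles with wide gaps in the higher direction lay in genes of varied function. In Nipsnap2, a mitochondrial protein gene, the tile on chromosome 5 from 129729001 to 129730000 was at 71.0, 81.4 and 79.2% in A/J and 28.3 to 56.8% in the others. In Mief1, whose product recruits the fission protein Drp1 to mitochondria, the tile on chromosome 15 from 80249001 to 80250000 was at 56.0, 69.5 and 59.8% in A/J and 4.93 to 41.8% in the others. In both the A/J samples stood clear of the other strains, by 14.2 points at the nearest sample. In Tln1, which encodes talin, the link between integrins and actin, the tile on chromosome 4 from 43559001 to 43560000 was at 77.0, 61.8 and 69.1% in A/J and 11.3 to 49.9% in the others. In Nfix, a nuclear factor I gene, the tile on chromosome 8 from 84716001 to 84717000 was at 50, 63.4 and 56.5% in A/J and 4.40 to 37.5% in the others. Nfix and Tln1 had adjusted p of 2.46e-07 and 0.000704 with limma.

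Near Jund, an AP-1 transcription factor gene, a tile 1739 bp away on chromosome 8 (70695001 to 70696000) was at 73.1, 67.7 and 70.5% in A/J and 13.2 to 56.0% in the others. C57BL/6J, at 53.9% ± 3.32 (SD, n = 3), was nearest to A/J. In Scmh1, a Polycomb-group gene, the tile on chromosome 4 from 120516001 to 120517000 was at 64.4, 69.2 and 68.5% in A/J and 10.6 to 52.8% in the others, with NZO/HlLtJ nearest at 51.0% ± 2.38 (SD, n = 3). In both tiles 1 other strain lay on the A/J side, although below all A/J samples. The remaining tiles of the 10 with the widest gaps lay in Vps9d1 and 2745 bp from the noncoding gene Gm35515. The A/J means there were 45.0 and 52.6%, and the highest other samples were at 28.2 and 35.8%. Without A/J replicate 3 the Vps9d1 difference was 23.1 points, short of the limit.

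In the lower direction 7 tiles were set apart. Btbd9, which encodes a BTB-domain protein, held the widest gap: on chromosome 17 from 30219001 to 30220000 the A/J samples were at 33.6, 39.98 and 33.2% and the 24 others at 80.5 to 92.9%, with a median of 86.0%. All other strains were thus highly methylated and A/J lower by 50.7 points, with 40.5 points between the nearest samples (limma, adjusted p = 2.77e-10). No such difference in listing between A/J and the others lay within 1 kb of this tile. In Cmya5, a muscle protein gene, the tile on chromosome 13 from 93041001 to 93042000 was at 62.7, 57.8 and 58.4% in A/J and 80.2 to 93.5% in the others.

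The remaining lower tiles were mostly away from genes. A tile 7996 bp from Ankrd55 on chromosome 13 (112392001 to 112393000) was at 39.1, 41.6 and 45.1% in A/J and 60 to 100% in the others. A tile 16394 bp from the pseudogene Gm3338, on chromosome 13 from 62305001, was at 55.5, 51.9 and 51.8% in A/J and 70.5 to 96.7% in the others. Of the 7 lower tiles 3 were thus on chromosome 13, the autosome with more lower than higher positions. Tiles near the noncoding genes Gm35148 and Gm51874 on chromosome 11 had A/J means of 21.9 and 4.81% and lowest other samples at 29.5 and 10%.

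The seventh lower tile overlapped Krt19, a keratin of bile duct cells and the only called tile of the 8 listed cholangiocyte genes. On chromosome 11 from 100144001 to 100145000 its 5 positions averaged 15.1, 12.9 and 17.4% in A/J and 24.3 to 66.3% in the others (difference -28.3 points, limma, adjusted p = 3.20e-05). The groups did not overlap. With positions listed in at least 2 of 3 files of every strain the difference was -19.2 points and the call was lost. In the 24 other samples the range was wide, and 9 positions that differed in listing between A/J and the others lay within 1 kb, whose part in the result was not tested. In bulk DNA a change in the share of cells of a type and a change within a cell type cannot be told apart. Over the 13 tested tiles of cholangiocyte genes the median difference was 0.900 points, against 0.636 points over all tested tiles.

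The 10 further tiles set apart inside protein-coding genes were all of the higher direction, since the 7 lower ones are given above. In Cat, which encodes catalase, an abundant peroxisomal enzyme of liver, the tile on chromosome 2 from 103476001 to 103477000 was at 91.7, 81.2 and 77.8% in A/J. The 24 others ranged from 13.1 to 66.9% with a median of 23.9%, and DBA/2J, at 59.8% ± 6.13 (SD, n = 3), was the strain nearest to A/J. A/J and DBA/2J were thus high and the other 7 strains lower, with a difference of 54.9 points for A/J (limma, adjusted p = 4.08e-09). In Lactbl1 75 positions on chromosome 4 from 136637001 to 136638000 averaged 65.4, 44.6 and 66.5% in A/J and 4.33 to 36.8% in the others. In Spag1, which encodes an assembly factor of ciliary dynein, the tile on chromosome 15 from 36210001 to 36211000 was at 52.5, 51.4 and 55.4% in A/J and 1.32 to 44.3% in the others. There DBA/2J again was nearest, at 40.6% ± 3.49 (SD, n = 3), and with the 24 other samples as one group the call was lost (limma, adjusted p = 0.0601).

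In Itpr1, the inositol trisphosphate receptor of the endoplasmic reticulum, the tile on chromosome 6 from 108477001 to 108478000 was at 49.6, 59.9 and 52.3% in A/J and 20.2 to 42.3% in the others. In Ngb, the neuroglobin gene, the tile on chromosome 12 from 87102001 to 87103000 was at 45.6, 32.6 and 43.3% in A/J and 9.63 to 25.03% in the others. Both had differences close to the limit of 25 points, 25.4 and 25.1 points. The Itpr1 call was lost without A/J replicate 2 (22.4 points), without PWK/PhJ (24.8 points), without CAST/EiJ and PWK/PhJ together (24.6 points) and with positions listed in at least 2 of 3 files of every strain (22.4 points). The Ngb call was lost without A/J replicate 1 (22.5 points) or 3 (23.7 points), and without any of 129S1/SvImJ, CAST/EiJ, DBA/2J or WSB/EiJ, or CAST/EiJ and PWK/PhJ together (24.5 to 24.9 points). In each case the tile fell short of the limit on size, with an adjusted p of limma still under 0.05. The remaining tiles of this group lay in Glb1l, Tmem233, Ctnna3 and Ildr2, with A/J means of 72.4, 53.2, 61.5 and 64.3% and highest other samples of 55.2, 42.4, 49.0 and 51.0%. With the 24 other samples as one group the Tmem233 call was lost (limma, adjusted p = 0.0795). The Glb1l call was lost without A/J replicate 3 (22.4 points), which at 85.4% was well above replicates 1 and 2 at 66.7 and 65.1%.

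**Figure D5:**
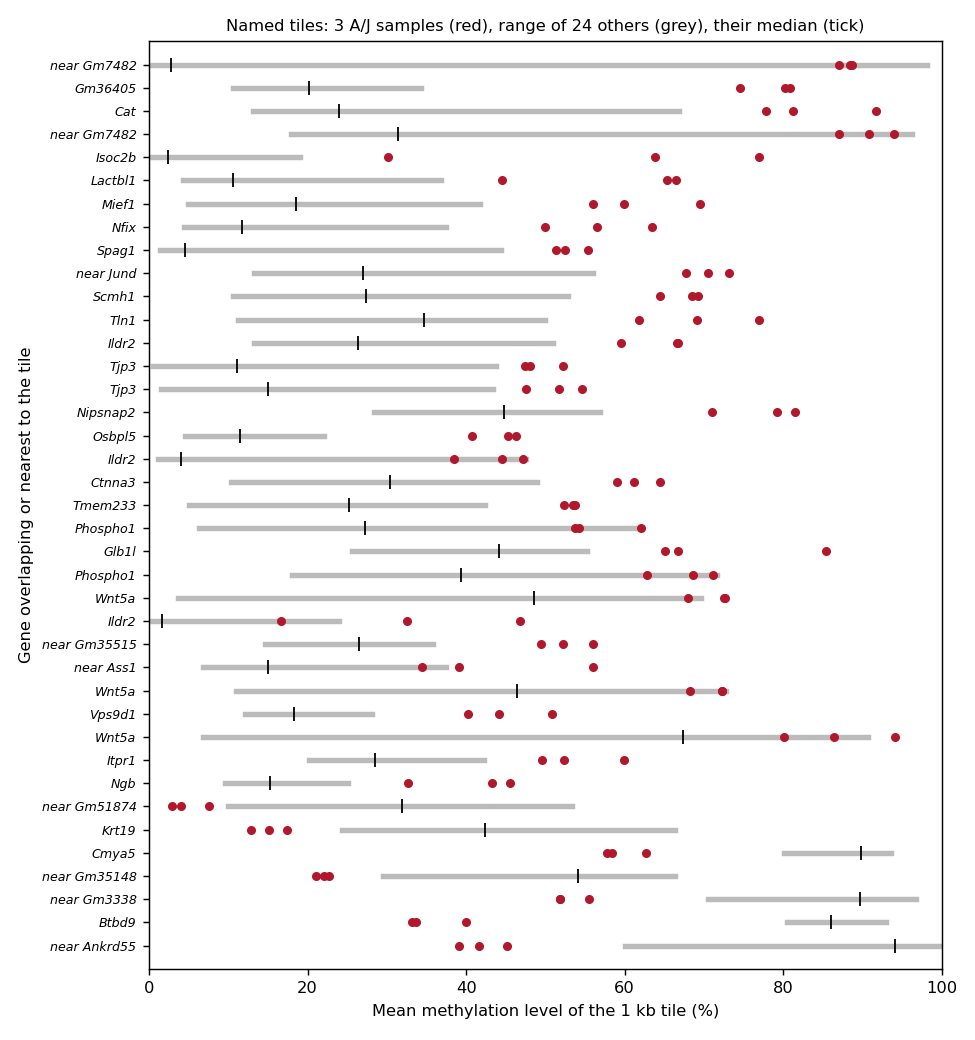
Mean methylation level (%) of the 1 kb tiles named by rule, ordered by the difference between A/J and the other strains, with the 3 A/J samples in red, the range of the 24 other samples in grey and their median as a black tick. Most tiles lie to the right of the grey bars, and 7 lie to the left, with Btbd9 and Gm36405 having the widest gaps.

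Called tiles lay next to each other in 7 runs, all of them higher in A/J, as were 156 of all 187 called tiles. The longest covered 3 tiles and 65 positions in Wnt5a, a secreted Wnt ligand, on chromosome 14 from 28509001 to 28512000. Its A/J means by tile were 70.9, 86.9 and 71.1%, against 44.7, 61.3 and 42.8% in the others. A/J did not stand apart there: NOD/ShiLtJ and NZO/HlLtJ were also on its side, and WSB/EiJ was lowest, at 12.0, 11.9 and 5.81%. All 3 Wnt5a calls were lost without WSB/EiJ, with differences of 21.5, 18.6 and 23.0 points, and without C57BL/6J, with 22.6, 21.5 and 24.2 points, and that of the middle tile also without A/J replicate 3, with 22.0 points. With positions listed in at least 2 of 3 files of every strain the second and the last of these tiles were lost as well, at 22.4 and 22.9 points. In Tjp3, which encodes the tight junction protein ZO-3, the tiles on chromosome 10 from 81285001 to 81287000 had A/J means of 51.3 and 49.2%, against 17.4 and 14.1% in the others. CAST/EiJ was nearest to A/J in both, at 37.9% ± 4.81 (SD, n = 3) and 39.2% ± 3.99 (SD, n = 3), and all A/J samples were above all others.

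In Ildr2, an immunoglobulin-like receptor gene, adjacent tiles on chromosome 1 from 166308001 to 166310000 had A/J means of 32.0% ± 15.1 (SD, n = 3) and 43.4% ± 4.50 (SD, n = 3), against 4.78 and 12.8% in the others. In the first the A/J samples were spread from 16.6 to 46.8%, and that call was lost without A/J replicate 1, with a difference of 19.8 points. In the second 129S1/SvImJ and NZO/HlLtJ were on the A/J side, NZO/HlLtJ at 39.2% ± 8.57 (SD, n = 3). The highest other sample there, at 47.6%, was above all A/J samples, and the median of the others was 3.99%. The tiles over Phospho1 and Abi3 on chromosome 11, 95830001 to 95832000, had A/J means of 67.5 and 56.6%, with PWK/PhJ on the A/J side in both. A run 6780 bp from the pseudogene Gm7482 on chromosome 7 was shared by A/J and C57BL/6J, and its largest difference was 74.1 points. The 2 other runs lay at Dedd2 and Sgk1. With the 24 other samples as one group, limma gave adjusted p of 0.0829 and 0.0755 for the Tjp3 tiles, 0.122 and 0.154 for Phospho1, 0.0569 and 0.0608 for Gm7482, and 0.149 for the second Ildr2 tile. For the Wnt5a tiles it gave 0.358, 0.480 and 0.406, so none of these calls held in that fit.

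Of the 10 listed gene sets 2 held a called tile, where 187 of all 45598 tested tiles were called. In the hepatocyte set 1 of 41 tested tiles was called, higher in A/J, and in the cholangiocyte set 1 of 13 was called, lower. In the sets of glucose and lipid metabolism (75 tiles), drug metabolism (24), imprinted genes (98), methylation and chromatin writers and erasers (34), genes with a known A/J variant (53), Kupffer cells and leukocytes (13), endothelial cells (33) and stellate cells (20) none was called in either direction by limma. Over the 350 tiles of these 8 sets, 77 had an unadjusted p under 0.05 and 20 an adjusted p under 0.05 with a difference of less than 25 points. Of all 45598 tested tiles 8298 had an unadjusted p under 0.05 and 2768 an adjusted p under 0.05, the 187 called tiles included. The hepatocyte tile lay 331 bp from Ass1, the urea cycle enzyme argininosuccinate synthase, on chromosome 2 from 31521001 to 31522000. It was at 56.0, 34.4 and 39.1% in A/J and 6.79 to 37.4% in the others, with overlap at the lowest A/J sample (difference 26.5 points, limma, adjusted p = 8.17e-06). The call was lost without A/J replicate 1, with a difference of 20.1 points.

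The median differences of the sets are given as a description, and their difference from all tested tiles was not tested. The median difference was 3.00 points over drug metabolism tiles with 83.3% of them above 0, 2.34 points over glucose and lipid tiles with 72.0% above 0, and 2.27 points over hepatocyte tiles with 70.7% above 0. Over all tested tiles it was 0.636 points with 61.2% above 0. Of the 41 hepatocyte tiles 9 passed the adjusted p of limma alone, as did 2768 of all 45598 tested tiles. The medians were -0.0406 points for genes with an A/J variant, -0.383 for stellate cell genes, 0.246 for endothelial genes and 1.07 for imprinted genes. Over the 7 hepatocyte promoter windows with 5 or more positions the A/J median was 0.667% and that of the others 0.621%. The 11 imprinted gene windows had medians of 32.7 and 35.4%, and the 2 cholangiocyte gene windows of 31.2 and 25.7%. The 5 stellate cell gene windows had medians of 0.382 and 1.26%, and the 2 endothelial gene windows of 2.64 and 2.31%.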

How the data were processed

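The samples were 27 RRBS libraries, grouped by the strain in their labels. Per the submitters' processing notes, reads were handled with Trim Galore 0.6.3, Bowtie2 and Bismark 0.22 on GRCm38 or mm10. The authors deposited, per the file headers, a percent of methylation for each listed position of each sample, with no read numbers, so no interval or coverage minimum could be used. Of 278102 positions in RefSeq promoter windows of GRCm38.p6, 278096 lay on a CpG. Gene spans came from the RefSeq table of that assembly, which does not give exons.

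Positions listed in all 27 samples were used, leaving out 695 positions on chromosome 17 between 39843014 and 39848754. Percent values were put on the scale log2((percent + 5)/(100 - percent + 5)). Strain was a factor with 9 levels, and A/J was set against the mean of the other 8 with limma's moderated test and Benjamini-Hochberg adjustment, over positions and over 1 kb tiles with 5 or more positions. The test was rewritten with pandas 2.3.3, scipy 1.17.1 and numpy 2.4.6 (Python 3.11.15). Set against R 4.3.3 and its limma 3.58.1, 703638 of 703638 positions and 45598 of 45598 tiles fell on the same side of the threshold. The rewritten test was also run on simulated data, with the outcome not given here. Single values per sample were compared by exact permutation of 3 against 24 samples (2925 arrangements), with the 3 samples of a strain counted as separate.

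Named tiles were the 10 set apart with the widest gap in each direction (7 existed lower), the next 10 set apart in protein-coding genes, the 5 runs with the most tiles within 5 kb, and called tiles at listed genes. The members and lists were chosen with earlier results of these data known. The level, density and distance classes and their alternatives were added after the data were seen. The alternatives covered the offset, scale, filters, listing, minimum difference, tile size, samples left out and a replicate block.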

Additional observations from a re-analysis of the deposited data

Results flagged for a closer look

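A stretch on chromosome 17 that was left out of the comparisons held a signal in A/J above all other samples. Over its 695 shared positions the A/J samples were at 42.1, 42.4 and 46.4%, a mean of 43.6% ± 2.44 (SD, n = 3). The 24 other samples ranged from 6.59 to 27.2% with a median of 13.4% (exact permutation test, two-sided, p = 0.000342, the smallest this design can give). In this test the 3 samples of a strain count as separate. How many copies of the stretch each strain carries was not examined. With the stretch kept, 3019 positions were called higher in A/J and 714 lower, against 2307 and 652 without it. The p-values were then adjusted anew over all tested positions, so calls outside the stretch changed as well.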

How the results depend on the processing

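Of 1133 values recomputed under alternatives, 1029 stayed on the same side of the threshold with the same sign, or for counts within 1.5 times, and 0 changed direction. Direction was not scored for counts. At named tiles the offset, scale, filter on the mean, minimum difference, one-group fit and replicate block cannot change the sign of the difference. Nor can the limits on positions per tile or the kept stretch on chromosome 17. For these values the 0 was fixed in advance. For A/J against the mean of the others, the called positions numbered 1357 with an offset of 1 point, 4924 on untransformed percent, 557 with a minimum difference of 50 points and 685 with the 24 other samples as one group. Called tiles numbered 1581 and set-apart tiles 253 with a minimum difference of 10 points, and 13 and 6 with 50 points. With the 24 samples as one group they numbered 58 and 41, and with 10 or more positions per tile 85 and 35. With 3 or more positions 316 tiles were called, and without CAST/EiJ and PWK/PhJ 96 were set apart. Higher positions outnumbered lower ones under each of these, 531 to 154 in the one-group fit and 409 to 148 at 50 points. Leaving out A/J replicates gave 1845 to 2204 called positions (1900 without replicate 1 and 1845 without replicate 3), 178 to 184 tiles and 79 to 89 set-apart tiles. The mean difference over all positions was 0.551 to 0.590 points, and it missed the threshold without A/J replicate 1 (exact permutation test, p = 0.0646, 0.551 points).

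Between A/J and single strains, an offset of 1 point gave 1618 called positions for 129S1/SvImJ, 2090 for C57BL/6J, 6255 for CAST/EiJ, 1268 for DBA/2J, 1159 for NOD/ShiLtJ, 1159 for NZO/HlLtJ, 5710 for PWK/PhJ and 2558 for WSB/EiJ. Untransformed percent gave 5112 for 129S1/SvImJ, 6776 for C57BL/6J, 4201 for DBA/2J, 3568 for NOD/ShiLtJ, 4382 for NZO/HlLtJ and 8429 for WSB/EiJ. Leaving out an A/J replicate gave 2733 to 3222 for C57BL/6J. The cause of these changes was not tested. Positions in at least 2 of 3 A/J files and in none of the 24 others numbered 6045, and those in at most 1 A/J file and all others 3967. Limits set on the 24 other samples gave 5.89 points at dense positions, and an A/J level above all others. Of 962 values of named tiles, 893 kept their call. At a minimum of 50 points 32 of 39 tiles lost it, and in the one-group fit 12 of 39 did. These tiles were named from the same data. The settings that cannot change the sign of their difference leave its size in points as it was.

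The replicate numbers do not pair the samples: of 76 pairs with the same number in different strains, 0 had deviations correlated above 0.1. With a replicate block 2427 positions were called, 1888 of them higher, with 184 tiles and 63 set apart, and for CAST/EiJ 6718 positions. The counts for NOD/ShiLtJ and DBA/2J were then equal, 1996 each. The lack of read numbers limits what can be said of a single position.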
